A study of Mus musculus with 6 samples.

Results

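Tnfaip2 (TNF alpha induced protein 2) and Vnn1 (vanin 1) were the 2 genes, of 18193 with a probe set of their own, whose brightest probe set had the largest excess in vestibular over cochlear sensory epithelia. The arrays carried 5 probe sets annotated to one of these genes alone, of 34945 probe sets that name a single gene. Tnfaip2 had 3 of them and Vnn1 had 2. The genes were picked on these arrays for this very difference, so their vestibular and cochlear values are given as a description, with no test. The mice were wild type, of the C3H strain and at postnatal day 2, with no treatment, and 3 arrays were made of vestibule and 3 of cochlea. A vestibular sample held the utricle, the saccule and a pair of cristae, the anterior and the lateral. Mesenchymal tissue and nerve cells were therefore part of every sample, since neither epithelium was freed of them, and a sample pooled 10 to 12 inner ears. The values are log2 expression levels, and a difference is the vestibular mean minus the cochlear mean on that scale.

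Tnfaip2 codes for a cytoplasmic protein related to Sec6, a subunit of the exocyst, the complex that tethers secretory vesicles to the plasma membrane. It was found as a gene induced by tumour necrosis factor in endothelial cells, is also known from myeloid cells, and is needed, together with the small GTPase RalA, for the thin membrane bridges between cells called tunnelling nanotubes. Vnn1 codes for a pantetheinase anchored to the outer cell surface, which splits pantetheine into pantothenate (vitamin B5), the precursor of coenzyme A, and cysteamine. Vnn1 is a known target of the fatty acid receptor PPAR alpha in mouse liver. The vestibule and the cochlea share hair cells and supporting cells, but the vestibule also holds dark cells, which secrete potassium into the endolymph, and the membranes that carry the otoconia.

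The Tnfaip2 probe set 1438855_x_at read 11, 10.8 and 10.7 in the vestibular arrays, against 5.4, 5.8 and 6.1 in the cochlear arrays. The lowest vestibular array lay 4.6 above the highest cochlear array. The means were 10.83 ± 0.15 in the vestibule and 5.77 ± 0.35 in the cochlea (SD, n = 3 each), a difference of 5.07, or 33.5-fold. The suffix _x_at marks a probe set whose probes may also match other transcripts, and which transcripts these would be is not analysed here.

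The second Tnfaip2 probe set, 1416273_at, was designed on the RefSeq transcript of the gene. It read 10.0, 9.9 and 10.0 in the vestibule, against 6.2, 6.5 and 6.3 in the cochlea. Its 3 vestibular arrays lay within 0.1 of each other and 3.4 above the highest cochlear array. The difference was 3.63, or 12.4-fold, with means of 9.97 ± 0.06 in the vestibule and 6.33 ± 0.15 in the cochlea.

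The third, 1457918_at, was designed on an expressed sequence tag. It read 5.6, 5.6 and 5.8 in the vestibule, against 5.3, 5.4 and 5.4 in the cochlea. The groups still did not overlap, but the nearest arrays were 0.20 apart, where one step of the deposited values is 0.1. Its difference was 0.30, or 1.23-fold, below the fold of 1.3 used for a call throughout. The mean of 1457918_at was above that of 49.6% of all probe sets in the vestibule and 45.5% in the cochlea. Whether these levels exceed background was not tested.

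The Vnn1 probe set 1418486_at, designed on the RefSeq transcript, read 10.3, 10.3 and 10.5 in the vestibule, against 5.4, 4.9 and 5.6 in the cochlea. Every vestibular array was at least 4.7 above every cochlear array. The means were 10.37 ± 0.12 in the vestibule and 5.30 ± 0.36 in the cochlea, a difference of 5.07, or 33.5-fold, tied with the brightest Tnfaip2 probe set. Its cochlear mean was above that of 44.5% of all probe sets, and that of Tnfaip2 1438855_x_at above 51.1%. Whether these cochlear levels exceed background was not tested, so both folds are not exact.

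The second Vnn1 probe set, 1447845_s_at, read 8.4, 8.7 and 9.0 in the vestibule, against 3.9, 4.0 and 3.4 in the cochlea. The gap between the nearest arrays was 4.4, and the difference was 4.93, or 30.6-fold, with means of 8.70 ± 0.30 in the vestibule and 3.77 ± 0.32 in the cochlea. The cochlear mean lay under 4.7, the mean level below which a probe set was left untested, so the fold of this probe set rests on a cochlear value near the dim end of the arrays. Cochlear array 3 was the highest cochlear array at 1418486_at and the lowest at 1447845_s_at. The suffix _s_at marks probes shared by several transcripts, which are not identified here.

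**Figure D1:**
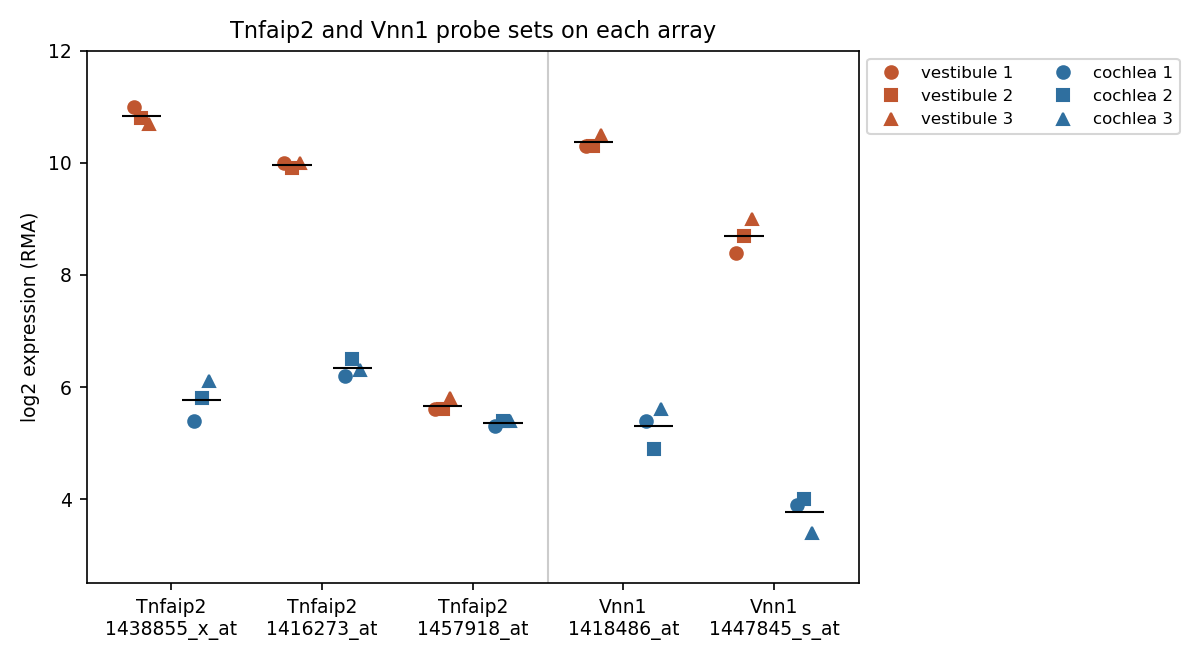
Level (log2, y axis) of the 3 Tnfaip2 and 2 Vnn1 probe sets (x axis), with a point for each array, vestibule left of cochlea and a bar at each mean. No vestibular point overlaps a cochlear one, and the distance between the tissues is 5.07, 3.63 and 0.30 for Tnfaip2 and 5.07 and 4.93 for Vnn1.

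All 5 probe sets passed the minimum level, Vnn1 1447845_s_at only through its vestibular level, and all 5 had vestibular arrays above every cochlear array. Over all 14162 genes tested, by the brightest probe set, 19.9% had vestibular arrays that lay wholly above the cochlear ones. This count is not read as a result for Tnfaip2 and Vnn1, since they were picked on the same values. The next genes in the order of vestibular excess were Cib3 at 5.0, Sfrp5 at 4.97, Rbp4 at 4.93 and Mmp13 at 4.73. Cib3 thus lay 0.07 below the pair, less than the SD of the cochlear arrays at either of the leading probe sets. Among single probe sets, 1437029_at of Tacr3 had a larger difference than both of these, at 5.13. Tacr3 was ranked by its brightest probe set, which had a difference of 4.4, so the first place of Tnfaip2 and Vnn1 depends on that rule. Cib3 codes for a calcium and integrin binding protein of the hair cell transduction complex, and Rbp4 for the carrier of retinol.

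The 3 probe sets of Tnfaip2 disagreed. Their differences spanned 4.77, with 1438855_x_at 1.43 above 1416273_at and 1416273_at 3.33 above 1457918_at. Among 2366 genes with 3 probe sets the median span was 0.33, and only Tacr3 and Tnfaip2 itself reached 4.77. The span was also wide among strongly vestibular genes. In the 30 genes with more than 1 probe set whose highest difference was at least 3, it had a median of 2.40 and ran from 0.03 to 5.03. In Tacr3, a neurokinin receptor gene, the probe sets ranged from 0.10 to 5.13.

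Averaged over its probe sets, the Tnfaip2 difference was 3.00. Where each Tnfaip2 probe set lies in the transcript, and whether 1457918_at reads the same transcript as the other two, is not analysed here. Probe sets bind their targets with different strength, so their levels are not set against each other.

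The 2 probe sets of Vnn1 gave nearly the same difference, 0.13 apart. The median span was 0.20 over the 4695 genes with 2 probe sets. Of the 30 genes with a highest difference of at least 3, only Zic1 and Mmp9, with 0.03 each, had a narrower span than Vnn1; they are named after their values were seen. The Vnn1 span rests on the dim cochlear values of 1447845_s_at and is not exact. The Vnn1 span was 0.47 without cochlear array 3 and 0.02 to 0.22 without any other single array.

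**Figure D2:**
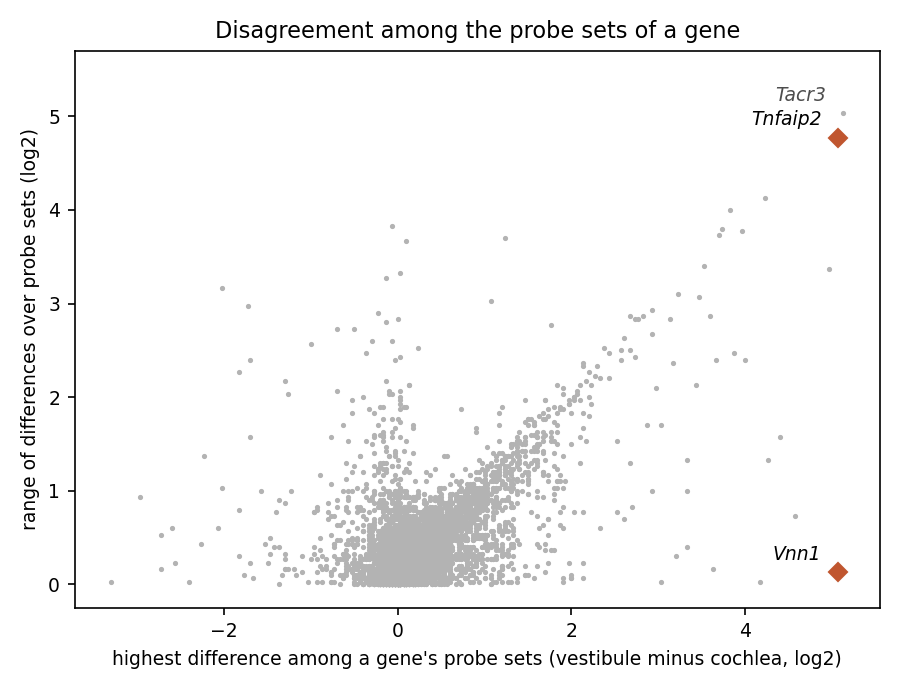
Span of the vestibule minus cochlea differences over a gene's probe sets (log2, y axis) against the highest of these differences (log2, x axis), with a point for each of 9010 genes with more than 1 probe set. Tnfaip2 lies at the upper right with a span of 4.77, next to Tacr3 at 5.03, and Vnn1 at the lower right with 0.13.

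The genes with the most similar profile were sought by the root mean square distance over the 6 arrays, after each probe set was centred on its own mean. This choice again uses the tissue difference and gives a description. For Tnfaip2 1438855_x_at the nearest genes were Cib3 at 0.262, Tacr3 and Vnn1 at 0.298 each, Cfap161 at 0.367 and Rbp4 at 0.394. The other Tnfaip2 probe sets were farther away, at 0.746 for 1416273_at and 2.394 for 1457918_at. For Vnn1 1418486_at the nearest were Tacr3 at 0.111, Rbp4 at 0.256, Tnfaip2 at 0.298, Cib3 at 0.390 and Cfap161 at 0.402, and its own probe set 1447845_s_at lay at 0.400.

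Tacr3 1437029_at, the nearest to Vnn1, read 9.3, 9.2 and 9.2 in the vestibule, against 4.2, 3.6 and 4.5 in the cochlea. As in Vnn1 1418486_at, cochlear array 2 was the lowest and cochlear array 3 the highest. Cib3 read 10.0, 9.3 and 10.0 in the vestibule, against 4.4, 5.0 and 4.9 in the cochlea, so that, as in Tnfaip2 1438855_x_at, cochlear array 1 was the lowest.

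The genes beside Tnfaip2 and Vnn1 on their chromosomes were not used in the choice, so their differences were tested in the fit over all probe sets (limma, two-sided, Benjamini-Hochberg adjustment over 29554 probe sets). A call needed a fold of 1.3 or more and an adjusted p below 0.1. By this rule 15.1% of all genes were higher and 7.98% lower in the vestibule, or 23.1% in either direction. Of the 5 genes on each side of Tnfaip2 on chromosome 12, 9 were tested, 2 were higher in the vestibule, 0 were lower and 7 did not pass. The 2 were the nearest genes with a probe set on either side.

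Exoc3l4, which codes for another protein of the Sec6 family, read 7.6, 7.8 and 7.7 in the vestibule, against 5.0, 4.7 and 5.0 in the cochlea. It was 2.8 higher (SE 0.13, 6.96-fold, limma adjusted p = 3.11e-06), with no overlap of the arrays. Gm266, a predicted gene on the other side, read 12.1, 12.1 and 12.2 in the vestibule, against 8.7, 9.4 and 8.8 in the cochlea. It was 3.17 higher (SE 0.18, 8.98-fold, limma adjusted p = 9.79e-06). The other Gm266 probe set, 1438770_at, gave a smaller difference of 0.80 (limma adjusted p = 0.00287), as the probe sets of Tnfaip2 did among themselves.

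Both flanking genes were thus higher in the vestibule. Whether the probe sets of Exoc3l4 or Gm266 also read Tnfaip2 transcripts was not tested. Farther out, Lbhd2 had a difference of -0.03 and Cdc42bpb of 0.20 on the side of Exoc3l4, and Eif5 and 2810029C07Rik had 0.10 each on the side of Gm266. Mark3 had 0.30 (limma adjusted p = 0.138), Rcor1 had -0.13 and Ckb had -0.17. Amn was below the minimum level.

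Around Vnn1 on chromosome 10, 7 of the 10 neighbours were tested, with 0 higher and 1 lower in the vestibule. Vnn3, the other vanin gene measured here, read 5.1, 5.2 and 5.1 in the vestibule, against 5.5, 5.0 and 5.3 in the cochlea. The groups overlapped, and Vnn3 did not pass (-0.13, limma adjusted p = 0.599, 95% confidence interval -0.46 to 0.19). Moxd1, which codes for a monooxygenase related to dopamine beta-hydroxylase, was the lower one, at 9.3, 9.4 and 9.2 in the vestibule, against 11.3, 11.1 and 11.1 in the cochlea. It was 1.87 lower (difference -1.87, SE 0.12, limma adjusted p = 1.65e-05), opposite in direction to Vnn1. Slc18b1 had -0.30 (limma adjusted p = 0.0987) and stayed under the minimum fold, and Stx7, Eya4, Ccn2 and Tbpl1 lay between -0.17 and 0.23.

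**Figure D3:**
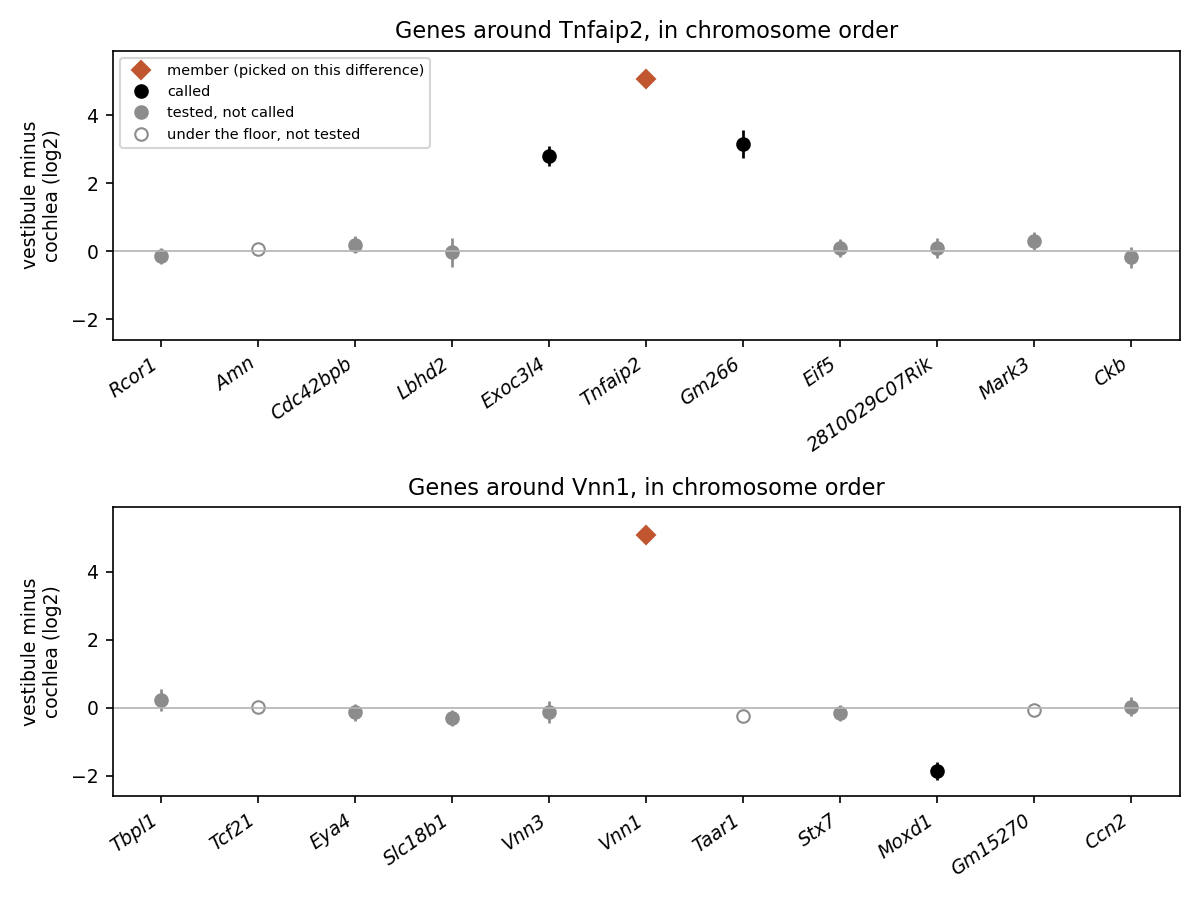
Vestibule minus cochlea difference (log2, y axis) of the brightest probe set of Tnfaip2 and Vnn1 and of the 5 genes on each side, in chromosome order (x axis), with 95% confidence intervals; open points were below the minimum level. Exoc3l4 at 2.8 and Gm266 at 3.17 flank Tnfaip2, whereas Vnn3 at -0.13 and Moxd1 at -1.87 lie near Vnn1.

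The start regions of Tnfaip2 and of its Sec6 relative Exoc3l4 are shown because these neighbours were high in the same tissue, and that of Vnn3 because it is the vanin gene that was not called. Each window runs from 250 bases before to 50 bases after the annotated start, 5′ to 3′ on the plus strand, and the sequences are from RefSeq (GRCm38.p6). They lie at chr12:111442411-111442710 for Tnfaip2, chr12:111417180-111417479 for Exoc3l4 and chr10:23851212-23851511 for Vnn3. Capitals mark matches, on either strand, to the kappa B motif of NF-kB, the GC box GGGCGG, the TATA box TATAAA or the AGGTCA element of nuclear receptors, and no matches of different motifs overlapped.
Tnfaip2: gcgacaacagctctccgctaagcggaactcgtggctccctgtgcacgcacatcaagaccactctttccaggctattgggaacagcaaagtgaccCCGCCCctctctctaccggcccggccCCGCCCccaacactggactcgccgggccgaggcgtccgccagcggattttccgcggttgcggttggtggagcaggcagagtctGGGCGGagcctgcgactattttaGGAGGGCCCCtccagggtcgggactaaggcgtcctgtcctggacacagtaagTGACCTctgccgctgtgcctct
Exoc3l4: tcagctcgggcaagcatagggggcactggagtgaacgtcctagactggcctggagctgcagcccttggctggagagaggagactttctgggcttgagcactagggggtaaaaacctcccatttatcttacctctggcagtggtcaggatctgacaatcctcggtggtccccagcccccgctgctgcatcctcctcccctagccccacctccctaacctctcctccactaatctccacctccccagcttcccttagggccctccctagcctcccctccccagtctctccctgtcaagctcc
Vnn3: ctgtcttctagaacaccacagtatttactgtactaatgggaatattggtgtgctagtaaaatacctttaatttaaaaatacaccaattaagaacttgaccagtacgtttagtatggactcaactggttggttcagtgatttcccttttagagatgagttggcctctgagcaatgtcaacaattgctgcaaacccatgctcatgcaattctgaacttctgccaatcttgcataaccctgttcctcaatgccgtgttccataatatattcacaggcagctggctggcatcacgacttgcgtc
The Tnfaip2 window held 1 kappa B match, 3 GC boxes, 1 AGGTCA element and 0 TATA boxes, at a GC content of 64.3%. Of 32851 windows of the same length, 8.46% held a kappa B match, 35.7% a GC box, 16.3% an AGGTCA element and 13.6% a TATA box, and the median GC content was 52.7%. The Exoc3l4 window, at 60.7% GC, and the Vnn3 window, at 41.0% GC, held no match to any of the 4 motifs. A match is a stretch of letters, and whether any factor binds there in these tissues was not measured. Vnn1 itself is named only.

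Genes that work with Vnn1 were read next, each by its brightest probe set. Beside the counts of this and the following lists, 15.1% of all genes tested were called higher and 7.98% lower in the vestibule. In the vanin family and coenzyme A metabolism, 16 of 17 genes were tested, 2 were higher in the vestibule, 0 were lower and 14 did not pass. The median difference was 0.08, against 0.03 over all genes tested. Btd, the biotin-recycling enzyme of the same protein family as the vanins, read 8.3 in each vestibular array, against 7.5, 7.8 and 8.0 in the cochlear arrays. It was 0.53 higher (SE 0.14, limma adjusted p = 0.0339), a call lost when any one vestibular array was left out. Slc25a42, the mitochondrial carrier of coenzyme A, was also 0.53 higher (SE 0.11, limma adjusted p = 0.0111). The other Slc25a42 probe set had a difference of 0.00.

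In a list on cysteamine, taurine and glutathione metabolism, 17 of 19 genes were tested. Of these, 6 were higher, 1 was lower and 10 did not pass, with a median difference of 0.33. Most of the list acts on glutathione or taurine and not on cysteamine itself. Gpx2, a glutathione peroxidase, read 9.7, 9.8 and 9.6 in the vestibule, against 7.0, 6.9 and 7.2 in the cochlea, a difference of 2.67 (SE 0.12, limma adjusted p = 3.33e-06). Gpx3, the secreted glutathione peroxidase, read 10.6, 10.4 and 10.5 in the vestibule, against 8.1, 8.3 and 7.4 in the cochlea, a difference of 2.57 (SE 0.21, limma adjusted p = 8.03e-05). These were the largest differences of the list, and the arrays did not overlap in either gene.

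Gclc, the catalytic subunit of the enzyme that starts glutathione synthesis, was 0.60 higher (limma adjusted p = 0.0179), a call lost without vestibular array 1. Slc6a6, the taurine transporter, was 0.47 higher (limma adjusted p = 0.06), a call kept only when cochlear array 2 was the one left out. Its 4 probe sets ran from 0.00 to 0.47. The list had 4 calls without vestibular array 1. Ggt7, of the gamma-glutamyltransferase family, was the lower one, with a difference of -1.13 (limma adjusted p = 0.000185). Ado, the dioxygenase that turns cysteamine into hypotaurine, had a difference of -0.03 (95% confidence interval -0.34 to 0.28) and did not pass.

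For PPAR alpha and its fatty acid targets, 17 of 23 listed genes were tested. Of these, 3 were higher, 0 were lower and 14 did not pass, with a median difference of 0.17. Ppara itself had a difference of -0.20 (limma adjusted p = 0.371, 95% confidence interval -0.50 to 0.10). Its means, 4.97 in the vestibule and 5.17 in the cochlea, lay close to the minimum of 4.7, and whether they exceed background was not tested. Cd36, a fatty acid uptake receptor, was 1.83 higher (SE 0.19, limma adjusted p = 0.00028), with a cochlear mean of 4.57, under the minimum of 4.7, so that Cd36 was tested only through its vestibular level. Over its 3 probe sets the Cd36 difference ran from 0.33 to 1.83. Pdk4, a kinase that inhibits pyruvate dehydrogenase, was 1.27 higher (SE 0.18, limma adjusted p = 0.00147). Cpt1a, which brings fatty acids into mitochondria, was 0.53 higher (limma adjusted p = 0.0784), a call kept only when cochlear array 2 was the one left out, and the list had 2 calls without any other array. The 3 Cpt1a probe sets ran from 0.17 to 0.53.

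Around Tnfaip2, 10 of 12 genes of the exocyst and the Sec6 family were tested, and 3 were higher, 0 lower and 7 did not pass, with a median difference of 0.13. Exoc3l4 stood first at 2.8, followed by the exocyst subunits Exoc7 at 0.60 (limma adjusted p = 0.0267) and Exoc6b at 0.40 (limma adjusted p = 0.0441). Exoc3l4 kept its call without any one array, while the call of Exoc7 was lost without vestibular array 2 or 3 or cochlear array 1 or 3, and that of Exoc6b without any vestibular array or cochlear array 1, so that 1 to 3 calls were left. The other Exoc6b probe set had a difference of -0.10. Exoc3, the Sec6 subunit itself, had a difference of 0.00 (95% confidence interval -0.26 to 0.26). The Sec6-like genes Exoc3l and Exoc3l2 were below the minimum level, with differences of 0.23 and -0.03.

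For the Ral GTPases and nanotube formation, 15 of 17 listed genes were tested. Of these, 3 were higher, 2 lower and 10 did not pass, with a median difference of 0.10. Rala, the partner of the Tnfaip2 protein in nanotubes, had a difference of 0.10 (95% confidence interval -0.16 to 0.36) and Ralb of -0.33 (95% confidence interval -0.72 to 0.05), and neither passed. Myo10, a motor protein of filopodia, was 0.77 higher (limma adjusted p = 0.0088), but its 4 probe sets ran from 0.10 to 0.77, and the call was lost when they were averaged. Rgl1, an exchange factor that activates Ral, was 0.73 higher (limma adjusted p = 0.0016). Eps8, an actin capping protein, was 0.43 higher (limma adjusted p = 0.046), a call lost without vestibular array 1 or 2 or cochlear array 3. Ralgapa2, a subunit of the complex that switches Ral off, had a difference of -1.67 (SE 0.16, limma adjusted p = 0.00015), and Ralgps2, an exchange factor, of -0.43 (limma adjusted p = 0.029), lost without vestibular array 2, where 3 calls were left in the list.

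In the signalling from the TNF receptors to NF-kB, upstream of Tnfaip2 in endothelial cells, 18 of 24 listed genes were tested. Of these, 1 was higher, 1 lower and 16 did not pass. Ripk1, Chuk and Nfkb1 had no probe set of their own here, and Lta, Ltb and Rel were below the minimum level. The median difference was 0.03, the same as over all genes. Tnf, the ligand, read 6.0, 6.1 and 6.1 in the vestibule, against 6.1, 5.8 and 6.2 in the cochlea, and the gene did not pass (0.03, limma adjusted p = 0.890, 95% confidence interval -0.27 to 0.33). Tnfrsf1a, the widely expressed TNF receptor, read 10.2, 10.2 and 10.0 in the vestibule, against 9.6, 9.7 and 9.8 in the cochlea, 0.43 higher (SE 0.12, limma adjusted p = 0.0369), a call lost without vestibular array 1 or 2 or cochlear array 1. Tnfrsf1b, the other receptor, had a difference of -0.13 (95% confidence interval -0.39 to 0.12), and Relb, an NF-kB subunit, of 0.03 (95% confidence interval -0.36 to 0.42). Traf5, an adaptor, had a difference of -0.50 (limma adjusted p = 0.0234).

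Of 28 listed genes that TNF and NF-kB are known to induce, 22 were tested. Cxcl2, Il6, Bcl3, Plau, Sele and Ptgs2 were below the minimum level. Among the 22, 3 were higher, 1 was lower and 18 did not pass, with a median difference of 0.15. Nfkbia and Tnfaip3, feedback inhibitors of NF-kB, had differences of -0.17 (limma adjusted p = 0.403) and -0.33 (limma adjusted p = 0.131), where Tnfaip3 passed as lower without vestibular array 2. Lif, a cytokine, was 0.73 higher (limma adjusted p = 0.00624), Ier3, an early response gene, 0.60 (limma adjusted p = 0.00898) and Birc3, an inhibitor of cell death, 0.50 (limma adjusted p = 0.0183). The other probe sets of Lif and Birc3 had differences of -0.20 and -0.03, and the cochlear mean of Lif was 4.67, under the minimum of 4.7, so that it was tested only through its vestibular level. Tnfaip6, which codes for a secreted hyaluronan-binding protein and shares with Tnfaip2 its discovery as a TNF-induced gene, had a difference of -1.67 (SE 0.16, limma adjusted p = 0.000178).

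**Figure D4:**
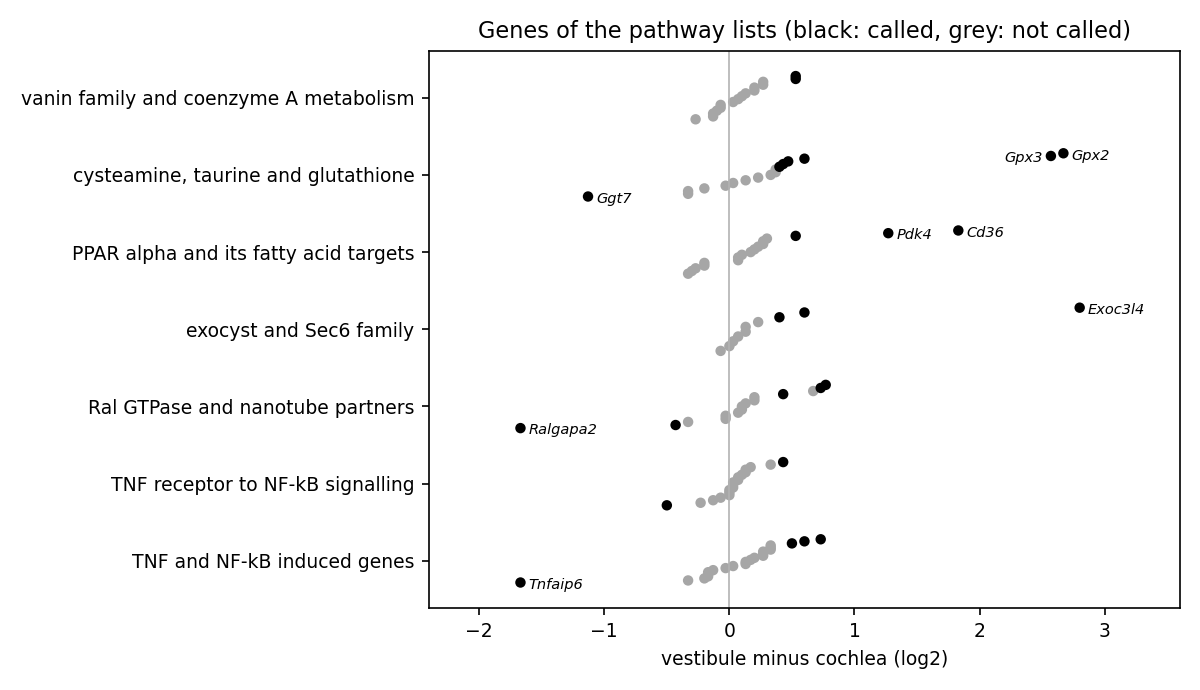
Vestibule minus cochlea difference (log2, x axis) of each tested gene of the 7 pathway lists (y axis), with called genes in black. Most points of every list lie near 0 and the named ones stand apart from them.

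Markers of several cell types moved with the tissue as well. Beside the marker counts below, 15.1% of all genes tested were called higher and 7.98% lower in the vestibule. In bulk tissue, a larger number of cells of a type and more RNA per cell cannot be told apart. Of 15 tested macrophage and myeloid markers, a cell class in which Tnfaip2 is known, 14 were higher in the vestibule and 0 lower, with a median difference of 1.60. A summed level is the log2 of the sum of unlogged values over the tested genes of a list, so bright genes weigh most. For these markers it was 13.38 to 13.65 in the vestibular arrays, against 11.59 to 11.84 in the cochlear arrays. Mrc1, Cd68 and Lyz2 were 2.33, 2.03 and 1.90 higher, while Cx3cr1 had 0.20 and did not pass, and Itgam was below the minimum level.

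Of 12 tested endothelial markers, 8 were higher and 1 lower, with a median difference of 0.98. Their summed level was 11.75 to 11.94 in the vestibule, against 10.88 to 11.39 in the cochlea, with Pecam1 below the minimum level. Of 7 tested markers of dark and other ion-transporting cells, 6 were higher and 0 lower, with a median of 2.17. Their summed level was 13.81 to 14.22 in the vestibule, against 13.46 to 13.63 in the cochlea. The brightest, Slc12a2, had means of 13.20 in the vestibule and 13.33 in the cochlea and was not called. Among called ones with more than 1 probe set, differences ran from -0.07 to 3.73 in Esrrb, 0.10 to 1.67 in Atp1b2 and 3.83 to 4.57 in Kcne1. Melanocyte markers were higher in 6 of 6, with a median of 1.68 and a summed level of 10.73 to 11.03 in the vestibule, against 8.93 to 9.76 in the cochlea.

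The sensory epithelia were present in both tissues by their markers. Of 11 tested hair cell markers, 6 were higher and 0 lower, with a median of 1.00 and a summed level of 13.47 to 13.58 in the vestibule, against 12.74 to 13.03 in the cochlea. Vestibular epithelial markers were higher in 6 and lower in 1 of 7, and the lower one, Bmp4, had -1.37 (limma adjusted p = 0.000204). Cochlear epithelial markers were lower in 6 and higher in 0 of 9. Neuronal markers were lower in 8 of 9, with a summed level of 11.77 to 11.91 in the vestibule, against 12.72 to 12.90 in the cochlea. Mesenchymal markers were higher in 6 and lower in 1 of 10, Schwann cell markers higher in 3 and lower in 1 of 6 (median 0.80), and neutrophil markers higher in 2 and lower in 0 of 5 (median 0.47). The summed level was 14.19 to 14.77 in the vestibule, against 13.12 to 13.55 in the cochlea, for Schwann cells, and 8.10 to 8.91 in the vestibule, against 7.73 to 7.83 in the cochlea, for neutrophils. Of the called markers, 6 had a mean under 4.7 in the tissue where they were lower and were tested only through the other tissue. The part of any of these cell types in the Tnfaip2 and Vnn1 levels was not tested.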

How the data were processed

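Total RNA of each pool was extracted with Trizol, amplified in a 2-cycle protocol, labelled with biotin and hybridised to Affymetrix mouse arrays, as the labels state. The authors computed log2 values by RMA with quantile normalization and Present calls by MAS5, with versions not given in the sources used here. These deposited log2 values, rounded to 1 decimal, were used without further scaling; array medians were 5.6 to 5.7. Symbols came from the array annotation, updated through Entrez numbers for 34741 probe sets, and none was taken from a probe set with several genes.

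Control probe sets were left out, and a probe set was tested at a mean of at least 4.7, which stands in for Present calls (29554 probe sets). The two-sided fit used lmFit and eBayes of limma 3.58.1 (R 4.3.3) with Benjamini-Hochberg adjustment. A gene was read by its brightest probe set, and a call needed a fold of 1.3 or more and an adjusted p below 0.1. The code was tested on simulated data. An exact permutation of 3 against 3 arrays cannot go below p = 0.1, so none was run. The number of arrays limits the precision. Each p-value rests on array-to-array variation within a tissue, and whether every array read a separate pool is not known. The study describes repeated biological experiments, but nothing used here says which pool each array read.

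Named were the 2 genes, the next genes in the order of excess, the 5 most similar profiles, the 5 neighbours on each side, up to 4 called genes per list and direction, a set of partners such as Vnn3 and Tnf, and up to 3 markers per cell type. Genes and lists, taken from textbook knowledge, were chosen with earlier results of these data known. Neighbour order came from RefSeq. Alternatives covered the filter, normalization, model, thresholds, probe sets of a gene, a replicate block and each array left out. Figures used Python 3.11.15, pandas 2.3.3, numpy 2.4.6 and matplotlib 3.10.9.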

Additional observations from a re-analysis of the deposited data

How the results depend on the processing

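Signs were checked for the 49 tested genes named as neighbours or in the pathway lists, and for the 5 Tnfaip2 and Vnn1 probe sets. Cell type markers were not part of this check. No called difference among the 49 genes, and none of the 5 probe sets, changed its sign under any alternative run. Of the genes named without a call, Ado, Ccn2, Lbhd2, Rala, Rcor1, Relb, Tnf and Tnfrsf1b changed sign under 1 to 3 alternatives each, to between -0.10 and 0.23, and none of these passed. With the mean over its probe sets the Tnfaip2 difference was 3.00, and without its _x_at probe set it was 3.63, against 5.07 by the brightest. With 1 array left out, the differences ran from 4.88 to 5.23 at Tnfaip2 1438855_x_at, 3.57 to 3.72 at 1416273_at, 0.23 to 0.33 at 1457918_at, 4.87 to 5.22 at Vnn1 1418486_at and 4.75 to 5.08 at 1447845_s_at, and the span over probe sets from 4.62 to 4.92 for Tnfaip2 and from 0.02 to 0.47 for Vnn1. The 3 neighbour calls were kept with each array left out. Probe sets called numbered 2355 to 3884 higher and 1414 to 2796 lower in the vestibule, against 3559 and 2182 with all arrays, with both lowest counts without vestibule 1. Genes called per list with 1 array left out numbered 1 to 3 for the vanin family and coenzyme A metabolism, 4 to 9 for cysteamine, taurine and glutathione, 2 to 3 for PPAR alpha, 1 to 3 for the exocyst, 3 to 6 for Ral and nanotubes, 1 to 2 for TNF receptor signalling and 4 to 5 for TNF-induced genes. TNF receptor signalling kept 1 of 2 calls under a second quantile normalization and under the replicate block, and TNF-induced genes had 7 calls where any probe set counted. The labels do not say whether arrays of the same replicate number form pairs, and the main fit treated them as unpaired. The deviations of same-numbered arrays correlated at 0.218, 0.153 and -0.000398, and those of differently numbered vestibular and cochlear arrays at -0.225 to 0.0292. With the number as a block, 2883 probe sets were higher and 1795 lower. Of the 49 tested genes named as neighbours or in the pathway lists, 37 kept their call under every alternative and 12 changed it under at least 1. The calls of Btd, Cpt1a, Exoc7, Exoc6b, Myo10 and Tnfrsf1a were among those lost, and the cause was not tested. Probe sets of 1 gene that disagree limit the size of the Tnfaip2 difference more than the arrays do.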

Other observations

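Among the listed genes below the minimum level, a pair was picked out after its values were seen. Ptgs2, the inducible prostaglandin synthase and a known TNF-induced gene like Tnfaip2, read 5.3, 5.3 and 5.1 in the vestibule, against 3.9, 4.0 and 3.4 in the cochlea. Its difference was 1.47, by the brighter of its 2 probe sets. S100a9, a neutrophil marker, read 5.1, 4.9 and 5.1 in the vestibule, against 4.2, 4.2 and 4.0 in the cochlea, a difference of 0.90. Both cochlear means lay under the minimum of 4.7. No test is given for the pair, since it was picked on these values. Other listed genes below the minimum had smaller differences, such as Slc7a11 at 0.63, Pecam1 at 0.43 and Bcl3 at 0.40.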
